A study of Homo sapiens with 16 samples.

Results

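The genes described here are 10 regulators of the actin cytoskeleton, taken by gene name from the table of estimated counts for 60603 genes: GSN, CAPG, SCIN, SVIL and FLII of the gelsolin family, and DAAM1, DAAM2, FMNL1, FMNL2 and DIAPH1 of the formins. They were followed across all 16 RNA-seq libraries of the study, which came from the human leukaemia lines SKNO-1 and U-937, with 2 libraries in each group. DAAM2 was picked on a measured value, its rise with ATRA in U-937 cells, so its levels and differences in U-937 are given as a description and are not tested. The other 9 genes were listed by family, with earlier results of these libraries known.

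SKNO-1 carries the RUNX1-RUNX1T1 fusion gene and was grown with GM-CSF at 10 ng/mL, and U-937, of monocytic character, lacks that fusion, so medium and origin differ together between the lines. The 4 treatments of each line lasted 24 h: the solvent DMSO, ATRA at 0.1 µM, Corin at 0.1 µM, or the pair of agents at 0.1 µM each. ATRA, all-trans retinoic acid, activates the retinoic acid receptors, which are transcription factors. Corin is a hybrid molecule that inhibits both the lysine demethylase LSD1 and the class I histone deacetylases held in the CoREST repressor complex. Each line stands for 1 culture background, and the labels do not say that the 2 libraries of a group came from separate cultures, so p-values measure the spread between these libraries, which may be technical. A change in bulk RNA cannot tell more RNA per cell from more cells with that RNA.

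Gelsolin (GSN) severs actin filaments and caps the end at which they grow, in response to calcium. CAPG, the macrophage capping protein, caps that end without severing, SCIN (scinderin) severs and caps as gelsolin does, SVIL (supervillin) ties actin and myosin to membranes, and FLII (flightless homologue) joins gelsolin-like repeats to leucine-rich repeats and also acts with nuclear receptors as a coactivator. Formins work at the same filament end in the opposite sense: they nucleate unbranched filaments and stay bound while the filament lengthens. DIAPH1, FMNL1 and FMNL2 are opened by small GTPases, and DAAM1 and DAAM2 also bind Dishevelled in planar cell polarity Wnt signalling. Monocytes, macrophages and granulocytes use both families for crawling, spreading and phagocytosis.

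Library depth ran from 28414479 to 37817314 estimated counts. The lines matched their labels at the fusion partner: RUNX1T1 stood at 114 ± 26.8 CPM (the count scaled to library size by TMM; SD, n = 2) in SKNO-1 with DMSO and at no more than 0.033 CPM in any U-937 library. The myeloid marker CD33 was present in both lines, at 122 CPM in SKNO-1 and 69.6 CPM in U-937 with DMSO, whereas the granule enzyme MPO was at 3300 CPM in SKNO-1 and 0.191 CPM in U-937. The 2 SKNO-1 DMSO libraries stood apart from each other: their genes differed with an SD of 0.361 on the log2 scale, against 0.11 to 0.209 in the other groups, and the difference correlated with GC content (r = 0.783 across 9132 genes, a description). The smaller difference of the U-937 DMSO pair (SD 0.178) also correlated with GC content (r = 0.558). This r was −0.415 in SKNO-1 with ATRA, 0.392 in U-937 with both agents, and between −0.159 and 0.117 in the rest. Of 14 markers of other cell types (other blood lineages, epithelial, fibroblast and endothelial cells), 10 stayed under 1 CPM in every group. Of the others, 2 moved with treatment: ITGA2B in SKNO-1 was at 10.2, 4.44, 37.7 and 33.3 CPM with DMSO, ATRA, Corin and both agents, and PECAM1 in U-937 was at 58.9, 112, 163 and 274 CPM. Their part in the results below was not tested.

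The start regions of DAAM2, FMNL2 and GSN are shown because these are the 3 listed genes that were over 4-fold above DMSO with ATRA in U-937 cells. Each line gives the 250 bases before an annotated start, on the + strand, from RefSeq on build GRCh38.p14. The regions are chr6:39792126-39792375 and chr6:39792730-39792979 for DAAM2, chr2:152334924-152335173 for FMNL2 and chr9:121285855-121286104 for GSN, 1 of 6 annotated GSN starts, shown because it holds GAGGAA on the + strand. Capitals mark that hexamer, the core of the sites bound by the myeloid factor PU.1.
DAAM2 start 1: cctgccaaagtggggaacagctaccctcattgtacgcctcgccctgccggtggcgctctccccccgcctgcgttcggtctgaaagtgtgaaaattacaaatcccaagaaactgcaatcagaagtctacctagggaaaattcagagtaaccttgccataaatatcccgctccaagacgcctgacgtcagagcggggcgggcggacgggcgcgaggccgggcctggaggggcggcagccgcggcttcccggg
DAAM2 start 2: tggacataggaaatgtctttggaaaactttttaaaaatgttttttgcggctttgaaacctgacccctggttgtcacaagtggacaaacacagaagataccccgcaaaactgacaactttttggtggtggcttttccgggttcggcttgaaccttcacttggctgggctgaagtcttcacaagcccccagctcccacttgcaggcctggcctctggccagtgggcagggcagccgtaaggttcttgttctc
FMNL2: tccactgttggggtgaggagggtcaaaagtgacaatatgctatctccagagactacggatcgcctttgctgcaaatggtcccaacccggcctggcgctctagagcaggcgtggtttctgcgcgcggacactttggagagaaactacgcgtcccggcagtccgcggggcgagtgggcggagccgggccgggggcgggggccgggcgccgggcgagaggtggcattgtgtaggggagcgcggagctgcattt
GSN start 3: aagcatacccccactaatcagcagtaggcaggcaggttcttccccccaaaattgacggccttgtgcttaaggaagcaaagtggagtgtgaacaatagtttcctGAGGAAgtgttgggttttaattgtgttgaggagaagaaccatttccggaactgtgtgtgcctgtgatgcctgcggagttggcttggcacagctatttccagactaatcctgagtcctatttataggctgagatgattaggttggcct
All 10 genes had a start in the RefSeq table, 23 windows in all, each reaching from 250 bases before to 50 bases after a start. The retinoic acid receptor hexamer AGGTCA, searched on both strands, was in 0 of these 23 windows and in 13.8% of 35116 windows of the same length. Only this exact spelling was searched, so sites of other spelling were not counted. Direct repeats of that hexamer with 1 to 5 bases between were in 0 of 23 and 0.0541%. GAGGAA, on either strand, was in 6 of 23 windows, of CAPG, SCIN, GSN and FMNL1, against 27.9% of all windows, and in the GSN window shown it lay at positions −147 to −142 from the start. The CArG box was in 1 window, of SVIL, against 1.29%. Windows with and without these letters say nothing about binding, and which start was used was not measured. By composition, DAAM2 start 1 (61.6% GC, 21 CpG) and FMNL2 (65.2% GC, 24 CpG) were richer in CpG than the median of all windows (58% GC, 11 CpG). DAAM2 start 2 (50.4% GC, 5 CpG) and GSN start 3 (47.6% GC, 3 CpG) were poorer. The other GSN starts, not shown, ran from 53.2% GC and 5 CpG (start 4) to 78.8% GC and 33 CpG (start 1).

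In U-937 cells ATRA raised GSN, FMNL2, DAAM1, CAPG and SVIL and lowered DIAPH1, and adding Corin to ATRA took GSN and FMNL2 further up while DAAM1 and SVIL were lower than with ATRA alone. In SKNO-1 cells the large movements were those of CAPG, which Corin raised over 20-fold, and FMNL2, which Corin also raised. GSN in SKNO-1 was not called under any treatment by this fit, and its values there depended on the processing and on the DMSO library used. DIAPH1 was lower with both agents in both lines, and FMNL1 was higher with both agents in both lines.

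**Figure D1:**
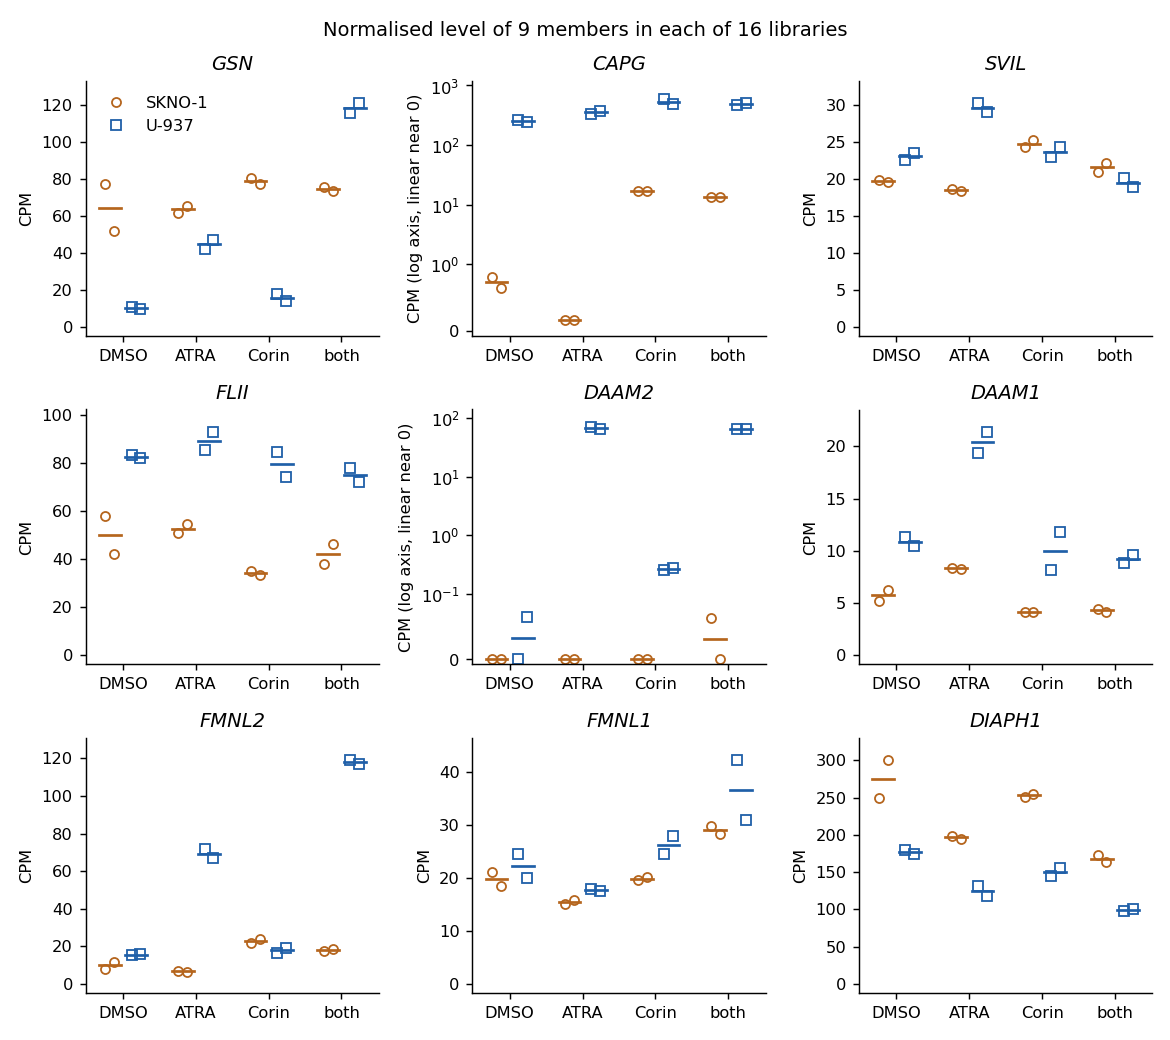
Levels in CPM of 9 of the 10 genes (SCIN, with 3 counts in all, is not drawn) for SKNO-1 (circles) and U-937 (squares) under the 4 treatments; the axis is linear except for CAPG and DAAM2, where it is logarithmic and linear near 0. Points are single libraries and lines are group means. GSN and FMNL2 in U-937 are higher with ATRA than with DMSO and highest with both agents, CAPG in SKNO-1 rises with Corin and with both agents, and DAAM2 is at or near 0 counts outside the U-937 groups that had ATRA.

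Genes were called at a Benjamini-Hochberg adjusted p under 0.05 over all genes tested, by the quasi-likelihood test of edgeR. SCIN in both lines and DAAM2 in SKNO-1 had too few counts to be tested, and DAAM2 in U-937 was left out of all counts of called members. Against DMSO in U-937, ATRA changed 6 of 8 genes, 5 higher and 1 lower, where 41.8% of all genes tested were called. Corin alone raised 2 of 8 in that line and lowered none, beside 12.9% of all genes. With both agents 5 of 8 were called, 4 higher and 1 lower, beside 65.3%. The median log2 change of the 8 genes was 0.42 with ATRA, 0.12 with Corin and 0.30 with both, against 0.02, 0.00 and 0.03 over all genes tested. SKNO-1 gave 3 of 8 called with ATRA (1 higher and 2 lower; 6.76% of all genes), 5 of 8 with Corin (3 and 2; 37.9%) and 4 of 8 with both (3 and 1; 46.7%). There the medians were −0.19, 0.14 and 0.21 against 0.01, 0.00 and 0.06 over all genes. Most of these shares of members lie near those of all genes or rest on 8 genes only, so nothing particular to the 2 families is read from them.

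GSN (ENSG00000148180.19, chromosome 9, 121207794 to 121332843, + strand) was 11.6-fold higher with both agents in U-937. Its 2 U-937 libraries were at 10.9 and 9.66 CPM with DMSO, 42.3 and 47.1 with ATRA, 18 and 13.9 with Corin, and 116 and 121 with both. No library of any treatment overlapped the DMSO pair, and the order ran DMSO, Corin, ATRA, both. On the log2 scale the change was 2.12 with ATRA (SE 0.125, adjusted p = 2.03e-12), 0.64 with Corin (SE 0.127, adjusted p = 0.00117) and 3.53 with both (SE 0.128, adjusted p = 5.68e-17). The Corin call was lost when U-937 Corin replicate 1 was left out (0.43, adjusted p = 0.0520). Both agents exceeded ATRA alone by 1.41 (SE 0.114, adjusted p = 2.79e-10) and Corin alone by 2.89 (SE 0.122, adjusted p = 1.58e-15).

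In SKNO-1 the same gene started higher, and no change was called by the edgeR fit of all 8 libraries. The libraries were at 77.2 and 52.1 CPM with DMSO, 61.5 and 65.7 with ATRA, 80.5 and 77.6 with Corin, and 75.7 and 73.5 with both. The DMSO pair was wide enough to overlap the ATRA libraries and those with both agents. The log2 change was 0.01 with ATRA (SE 0.167, adjusted p = 0.989), 0.29 with Corin (adjusted p = 0.209) and 0.25 with both (adjusted p = 0.251). With the GC trend removed the Corin value was 0.45 and called (adjusted p = 2.4e-04), and without the count filter the values with Corin (0.28, adjusted p = 0.0112) and both agents (0.24, adjusted p = 0.0382) were called. These values hang on which DMSO library is used: with ATRA the change was 0.31 (adjusted p = 4.47e-04) without DMSO replicate 1 and −0.30 (adjusted p = 3.86e-04) without DMSO replicate 2, and without replicate 1 the Corin value was 0.61 (adjusted p = 3.13e-08) and that of both agents 0.58 (adjusted p = 3.47e-08). RAB14, annotated on the strand opposite GSN, stood at 80.9 to 103 CPM over the groups, and whether the authors' counting used strand is not given in the sources used here.

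CAPG (ENSG00000042493.16, chromosome 2, 85394753 to 85418432, − strand) was the gene that differed most between the untreated lines. It was at 261 and 245 CPM in the U-937 DMSO libraries and at 0.81 and 0.648 CPM in those of SKNO-1, where the latter rest on 27 and 23 counts. In SKNO-1 it was at 0.154 and 0.166 CPM with ATRA (5 and 6 counts), 16.8 and 17.0 with Corin, and 13.6 and 13.3 with both. None of these groups overlapped the DMSO pair. Corin raised it 23.3-fold (log2 change 4.54, SE 0.158, adjusted p = 2.03e-06) and both agents 19.2-fold (4.26, SE 0.158, adjusted p = 1.4e-06). Even so the level with Corin stayed far below that of untreated U-937. ATRA alone lowered it by 2.14 on the log2 scale (SE 0.272, adjusted p = 0.00246), a call that rests on few counts and was not made when the 4 libraries were fitted alone (adjusted p = 0.0823). In the authors' deposited table the same comparison has a log2 change of −2.16 and an adjusted p of 0.327.

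In U-937 CAPG was at 330 and 377 CPM with ATRA, 594 and 484 with Corin, and 468 and 508 with both. All 6 treated libraries were above both DMSO libraries. The log2 change was 0.48 with ATRA (SE 0.114, adjusted p = 0.00152), 1.09 with Corin (SE 0.115, adjusted p = 2.07e-07) and 0.95 with both (SE 0.115, adjusted p = 1.16e-07). Without U-937 ATRA replicate 2 the ATRA change was 0.37 (adjusted p = 0.0696). Libraries with both agents overlapped those with Corin alone, and that difference was not called. On the authors' TPM scale, which divides by transcript length, the level with both agents was 329 against 497 with Corin and 241 with DMSO.

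SVIL (ENSG00000197321.14, chromosome 10, 29457338 to 29736959, − strand) moved by less than 1.6-fold in every comparison. Its U-937 libraries were at 22.6 and 23.5 CPM with DMSO, 30.2 and 29.0 with ATRA, 23.0 and 24.3 with Corin, and 20.1 and 18.9 with both. The ATRA pair was above all others and the pair with both agents below all others. With ATRA the log2 change was 0.36 (SE 0.108, adjusted p = 0.00929), and the call was lost without DMSO replicate 1 (0.0733), ATRA replicate 1 (0.0925) or ATRA replicate 2 (adjusted p = 0.0532). Its mean TPM was 4.70 with ATRA and 5.20 with DMSO, the 1 case among 43 called changes of the members in which the deposited TPM went the other way. Of those 43 changes, 37 had the same direction in TPM with no overlap of libraries. With both agents it fell by 0.59 against ATRA alone (SE 0.109, adjusted p = 7.68e-05). In SKNO-1 it was at 19.9 and 19.6 CPM with DMSO, 18.7 and 18.4 with ATRA, 24.3 and 25.2 with Corin, and 21.0 and 22.1 with both, and the Corin pair was highest. That log2 change of 0.33 (adjusted p = 0.0168) was not called when either Corin library or either ATRA library was left out (adjusted p from 0.0511 to 0.113).

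FLII (ENSG00000177731.16, chromosome 17, 18244815 to 18258738, − strand) was called in 1 treatment comparison. In U-937 it stayed between 72.2 and 92.9 CPM over all 8 libraries and was not called against DMSO under any treatment. In TPM, however, FLII in U-937 was lower with both agents (mean 28.8) than with DMSO (43.8), without overlap. In SKNO-1 it was at 58.1 and 42.2 CPM with DMSO, 50.9 and 54.6 with ATRA, 35.1 and 33.5 with Corin, and 38.2 and 46.5 with both. Only the Corin pair lay below both DMSO libraries. The log2 change with Corin was −0.55 (SE 0.162, adjusted p = 0.0298), and it was not called without Corin replicate 1 (adjusted p = 0.112) or replicate 2 (adjusted p = 0.156). SCIN (ENSG00000006747.15, chromosome 7, 12570577 to 12660182, + strand) had 3 counts over all 16 libraries, 1 each in SKNO-1 ATRA replicate 2, SKNO-1 Corin replicate 2 and U-937 replicate 1 with both agents, so no group rose above the limit that a count of 0 allows.

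Per transcript, 1 gene made up most of the family in U-937 and another pair in SKNO-1. The summed TPM of GSN, CAPG, SCIN, SVIL and FLII in U-937 was 295 ± 5.40 in the DMSO group, 346 ± 3.56 under ATRA, 552 ± 16.9 under Corin and 402 ± 13.0 under both (SD, n = 2). CAPG held 81.6%, 81.5%, 90.1% and 82.0% of these sums. GSN rose from 1.76% with DMSO to 5.55% with ATRA and 10.1% with both. In that line the TPM order with DMSO was CAPG (241), FLII (43.8), then GSN (5.22) and SVIL (5.20), whose libraries overlapped, and with both agents GSN (40.6) stood above FLII (28.8) without overlap. In SKNO-1 the sums were 48.8 ± 3.79, 50.9 ± 1.18, 65.6 ± 2.07 and 51.4 ± 6.12. GSN held between 49.4% and 50.4% of them in all 4 groups, and FLII was second with DMSO at 40.9%. CAPG went from 1.92% with DMSO to 20.6% with Corin and 17.2% with both.

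**Figure D2:**
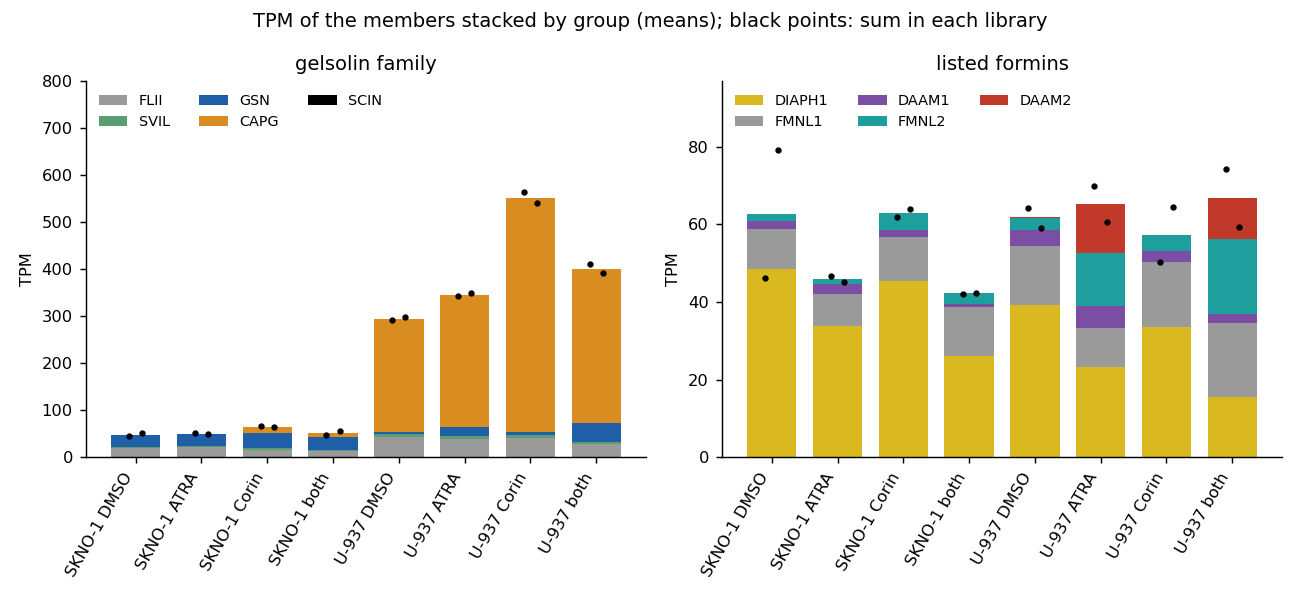
Summed TPM of the gelsolin family and of the listed formins in each group, split by gene; bars are means of 2 libraries and start at 0, and black points are the sums in single libraries. CAPG fills most of the gelsolin family bars in U-937, and the DIAPH1 part of the formin bars in U-937 shrinks from 63.7% with DMSO to 23.4% with both agents while FMNL2 and DAAM2 grow.

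DAAM2 (ENSG00000146122.17, chromosome 6, 39792298 to 39904877, + strand) had 0 and 2 counts in the U-937 DMSO libraries. It had 2618 and 2243 counts with ATRA, 10 and 9 with Corin, and 2303 and 1951 with both. These are 0 and 0.0655 CPM with DMSO, 69.8 and 65.8 with ATRA, 0.257 and 0.283 with Corin, and 65.4 and 64.5 with both. The 4 libraries that had ATRA were thus together at the top, and the Corin pair was above DMSO by a handful of counts. Relative to the 2 counts with DMSO, the depth-scaled ratio was 2160 with ATRA (95% interval 597 to 17800), 8.53 with Corin (2.06 to 75.6) and 2070 with both (572 to 17100). The intervals cover counting error only, and these ratios describe the value on which the gene was picked.

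The group mean was 67.8 ± 2.81 CPM (SD, n = 2) under ATRA and 64.9 ± 0.675 CPM under both agents, against 0.270 ± 0.0186 CPM under Corin. The fitted log2 difference of both agents from ATRA alone was −0.05 (SE 0.106), and from Corin alone 7.92 (SE 0.192). DAAM2 passed the count filter in U-937 only through the groups that had ATRA, so these differences too are given with no test, and the gene is in none of the counts of called members. In SKNO-1 the gene had 0 counts with DMSO, ATRA and Corin and 2 counts in 1 library with both agents. A count of 0 over the SKNO-1 ATRA pair allows up to 0.0438 CPM, far under the level of the U-937 ATRA pair. Within DAAM2 on the same strand, ENSG00000281969 had 189 counts in U-937 with ATRA, 154 with both and 0 in the other 6 groups, and the antisense DAAM2-AS1 had 0 counts in every library. How the authors' counting split reads between DAAM2 and ENSG00000281969 cannot be told.

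FMNL2 (ENSG00000157827.20, chromosome 2, 152335174 to 152649826, + strand) also rose with ATRA in U-937, 4.46-fold. Its libraries were at 15.4 and 15.7 CPM with DMSO, 71.9 and 66.8 with ATRA, 16.5 and 19.4 with Corin, and 119 and 117 with both. The 4 groups did not overlap, although the Corin pair was only just above DMSO. The log2 change was 2.16 with ATRA (SE 0.109, adjusted p = 1.14e-13) and 2.93 with both (SE 0.111, adjusted p = 1.17e-16), and Corin alone was not called. Both agents exceeded ATRA by 0.77 (SE 0.1, adjusted p = 7.59e-07) and Corin by 2.72 (SE 0.109, adjusted p = 5.89e-16). Both libraries with the combination thus lay above both with ATRA alone.

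In SKNO-1 FMNL2 was highest with Corin. It was at 8.22 and 11.8 CPM with DMSO, 7.11 and 6.35 with ATRA, 22.0 and 23.9 with Corin, and 17.7 and 18.5 with both. The Corin pair was 2.3-fold above DMSO (log2 change 1.20, SE 0.157, adjusted p = 8.09e-04), and the pair with both agents 1.88-fold (0.91, SE 0.158, adjusted p = 0.00228). The ATRA pair lay below DMSO and was not called. Of genes that overlap FMNL2, the antisense ENSG00000286207 was at 4.82 to 5.7 CPM in SKNO-1 and 0.935 to 1.61 CPM in U-937. NUDCP1 on the same strand was at most 0.152 CPM in SKNO-1, and in U-937 it was at 1.44 CPM with both agents, 0.682 with ATRA, 0.281 with Corin and 0.27 with DMSO, the same order as FMNL2. Its part in the FMNL2 values was not tested. How the authors' counting split reads between them cannot be told.

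**Figure D3:**
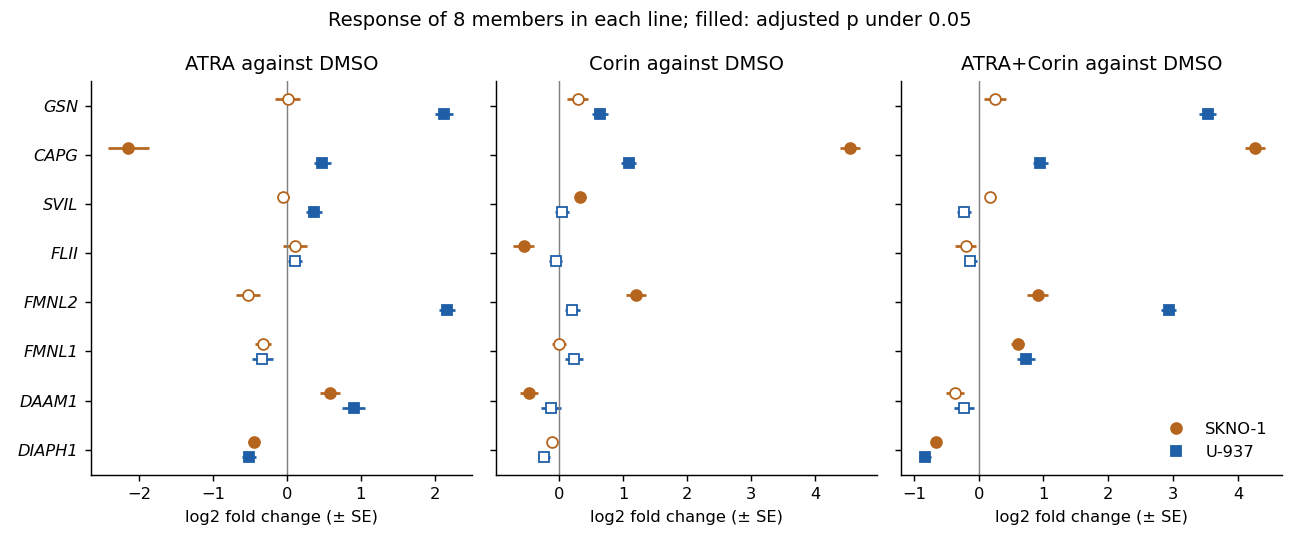
Log2 change against DMSO of 8 members with ATRA, Corin and both agents in SKNO-1 (circles) and U-937 (squares); bars are standard errors of the edgeR fit and filled symbols passed the test. In U-937, GSN and FMNL2 lie at 2.12 and 2.16 with ATRA and at 3.53 and 2.93 with both, and in SKNO-1 CAPG lies at 4.54 with Corin; DAAM2 and SCIN are not drawn.

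DAAM1 (ENSG00000100592.15, chromosome 14, 59188646 to 59371405, + strand), the close relative of DAAM2, rose with ATRA alone in U-937, and less securely in SKNO-1. Against DMSO it was not called with both agents in either line. In U-937 it was at 11.3 and 10.5 CPM with DMSO, 19.4 and 21.4 with ATRA, 8.21 and 11.8 with Corin, and 8.86 and 9.62 with both. The ATRA pair was above every other U-937 library. With ATRA the log2 change was 0.90 (SE 0.15, adjusted p = 3.26e-05), and both agents were 1.13 lower than ATRA alone (log2 difference −1.13, SE 0.151, adjusted p = 1.15e-06). Neither Corin nor both agents were called against DMSO. In SKNO-1 it was at 5.22 and 6.31 CPM with DMSO, 8.40 and 8.32 with ATRA, 4.14 and 4.17 with Corin, and 4.46 and 4.16 with both, again highest with ATRA. There the difference of both agents from ATRA was −0.94 (SE 0.137, adjusted p = 0.00103). The SKNO-1 changes against DMSO, 0.58 with ATRA (adjusted p = 0.0435) and −0.47 with Corin (adjusted p = 0.0303), were less secure. The first call was lost in 11 of 14 alternatives and the second in 12 of 14. The first was lost without any 1 of the 6 libraries treated with ATRA, Corin or both (0.53 to 0.58). The second was lost without any 1 library except DMSO replicate 1 (−0.49 to −0.37). Both calls were also lost with DESeq2, library totals, no count filter, the replicate block and the 4 libraries alone.

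FMNL1 (ENSG00000184922.14, chromosome 17, 45221444 to 45247319, + strand), a formin of blood cells, had its highest CPM with both agents in both lines. In U-937 it was at 24.5 and 20 CPM with DMSO, 17.9 and 17.6 with ATRA, 24.5 and 28.0 with Corin, and 42.2 and 31.0 with both. In SKNO-1 it was at 21.2 and 18.5, 15.1 and 15.8, 19.6 and 20.1, and 29.8 and 28.3 CPM in the same order. In both lines the ATRA pair was the lowest and the pair with both agents the highest, with no overlap between those 2 groups. In TPM the U-937 pair with both agents (mean 19.0) overlapped those with DMSO (15.2) and Corin (16.7). Against DMSO both agents raised it by 0.73 on the log2 scale in U-937 (SE 0.14, adjusted p = 1.62e-04) and by 0.60 in SKNO-1 (SE 0.103, adjusted p = 0.00221). Against ATRA alone the rise was 1.06 (SE 0.141, adjusted p = 4.67e-06) and 0.92 (SE 0.104, adjusted p = 3.14e-04). The ATRA value in U-937 (−0.33) was not called by the edgeR fit of all 8 libraries with TMM and the count filter. It was called without the filter (−0.35, adjusted p = 0.0218), with the GC trend removed (−0.47, adjusted p = 0.00581), in the 4 libraries alone (−0.34, adjusted p = 0.0156), without DMSO replicate 2 (−0.47, adjusted p = 0.0322) and without either library with both agents (−0.34, adjusted p 0.0175 and 0.0188). With the GC trend removed the rise with both agents in SKNO-1 was 0.33 and still called. FMNL1-DT, on the opposite strand, was at 0.86 CPM with DMSO and 5.39 CPM with both in U-937, and at 1.93 and 5.21 CPM in SKNO-1.

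DIAPH1 (ENSG00000131504.17, chromosome 5, 141515016 to 141619055, − strand) fell with ATRA and with both agents in both lines. In U-937 it was at 180 and 175 CPM with DMSO, 132 and 118 with ATRA, 145 and 155 with Corin, and 97.8 and 101 with both. In SKNO-1 it was at 249 and 300, 199 and 194, 251 and 255, and 173 and 163 CPM. The lowest pair in each line was that with both agents, then ATRA. In U-937 it fell by 0.51 on the log2 scale with ATRA (SE 0.0963, adjusted p = 1.58e-04) and by 0.83 with both (SE 0.097, adjusted p = 6.86e-08). In SKNO-1 it fell by 0.44 with ATRA (SE 0.0788, adjusted p = 0.0125) and by 0.66 with both (SE 0.0791, adjusted p = 3.95e-04). The SKNO-1 ATRA call was lost without ATRA replicate 1 (−0.5) or replicate 2 (−0.47). It was also lost in the edgeR fit of the 4 libraries alone (−0.46, adjusted p = 0.163). In TPM the SKNO-1 DMSO libraries were at 35.07 and 61.79 and the ATRA libraries at 34.91 and 32.76. Corin alone was not called in either line.

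The mix of the 5 listed formins in U-937 changed more than its sum. Other formins are not in this sum, among them DIAPH2 (143 CPM in U-937 with DMSO) and DIAPH3 (99.1 CPM). DAAM2, picked for its rise with ATRA, is part of it. The summed TPM of the 5 formins was 61.7 ± 3.67 in the DMSO group, 65.3 ± 6.62 under ATRA, 57.3 ± 9.93 under Corin and 66.8 ± 10.6 under both, and the libraries of the 4 groups overlapped. In the same order DIAPH1 held 63.7%, 35.4%, 58.3% and 23.4%. FMNL2 held 5.38%, 20.6%, 7.09% and 29.2%, and DAAM2 0.0169%, 19.7%, 0.262% and 15.8%. With DMSO the TPM order was DIAPH1 (39.3), FMNL1 (15.2), DAAM1 (3.94), FMNL2 (3.30) and DAAM2 (0.01). With ATRA FMNL2 (13.5) and DAAM2 (12.8) stood behind DIAPH1 (23.2) with overlapping libraries. With both agents FMNL2 (19.5), FMNL1 (19.0) and DIAPH1 (15.5) came first, FMNL1 overlapping its neighbours, then DAAM2 (10.5). In SKNO-1 the sum was 62.6 ± 23.2 with DMSO, where the libraries differed widely, 46.0 ± 1.01 under ATRA, 62.9 ± 1.41 under Corin and 42.2 ± 0.106 under both, and DIAPH1 held 77.1%, 73.6%, 72.0% and 61.6%.

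Adding the second agent to the first was tested in both directions. In SKNO-1, both agents against ATRA called 4 of 8 members, 3 higher and 1 lower, where 44.8% of all genes tested were called, and both agents against Corin called 2 of 8, beside 10.4%. The 4 were CAPG, FMNL1 and FMNL2, which were higher, and DAAM1, which was lower. CAPG was 84.7-fold above ATRA alone (log2 difference 6.40, SE 0.199, adjusted p = 1.15e-06), a ratio that rests on 11 counts over the ATRA pair. Against Corin, FMNL1 was higher by 0.60 (adjusted p = 0.0110) and DIAPH1 lower (−0.54, adjusted p = 0.00520). FMNL1 lost that call with the GC trend removed, where the difference was 0.16 (adjusted p = 0.324), and without either Corin library or either library with both agents (0.0847 to 0.129), and DIAPH1 without either Corin library or replicate 2 with both (adjusted p from 0.0598 to 0.0790).

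In U-937, both agents against ATRA called 7 of 8 members, 4 higher and 3 lower, beside 47.4% of all genes, and against Corin 5 of 8, 3 higher and 2 lower, beside 60.5%. The members above ATRA alone were GSN, FMNL2, FMNL1 and CAPG (0.47, adjusted p = 0.00139; 0.37 and 0.0620 without ATRA replicate 1). Those below were DAAM1, SVIL and DIAPH1 (−0.32, adjusted p = 0.00762). The DIAPH1 call was lost without ATRA replicate 1 (adjusted p = 0.153) or replicate 1 with both agents (0.0503). Against Corin the 3 higher were GSN, FMNL2 and FMNL1, the last by 0.49 (adjusted p = 0.00529), which was lost without Corin replicate 1 (0.39, adjusted p = 0.0619) or replicate 1 with both agents (0.25, adjusted p = 0.145). The 2 lower were DIAPH1 (−0.59, SE 0.0968, adjusted p = 1.18e-05) and SVIL (−0.27, adjusted p = 0.0351), and the SVIL call was lost without either ATRA library, either library with both agents or Corin replicate 2 (0.0568 to 0.161).

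Departure from additivity was what remained of the combined log2 change once those of ATRA and of Corin were subtracted, so 0 means that fold changes multiply. In U-937 it was called for 6 of 8 members, 3 above and 3 below 0, where 23.4% of all genes tested were called. Above 0 were GSN (0.78, SE 0.17, adjusted p = 0.00135), FMNL1 (0.82, SE 0.199, adjusted p = 0.00507) and FMNL2 (0.57, SE 0.149, adjusted p = 0.00675). Thus GSN with both agents was 1.72-fold above the product of its single-agent folds. Below 0 were DAAM1 (−1, SE 0.215, adjusted p = 0.00118), SVIL (−0.63, SE 0.154, adjusted p = 0.00345) and CAPG (−0.62, SE 0.161, adjusted p = 0.00611). The median over the 8 was −0.14 against −0.03 over all genes. Without U-937 ATRA replicate 2 the CAPG value was −0.51 (adjusted p = 0.0761) and the FMNL2 value 0.52 (adjusted p = 0.0520), and with library totals in place of TMM the FMNL1 value was 0.76 (adjusted p = 0.0774). In SKNO-1 none of 8 members was called by edgeR, beside 0.463% of all genes. The nearest were FMNL1 (0.92, adjusted p = 0.0526) and CAPG (1.86, adjusted p = 0.0554), and both were called when either DMSO library was left out, FMNL1 at 0.85 and 1.09 and CAPG at 1.73 and 2.09, and by DESeq2 (adjusted p = 5.94e-04 and 0.0415).

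**Figure D4:**
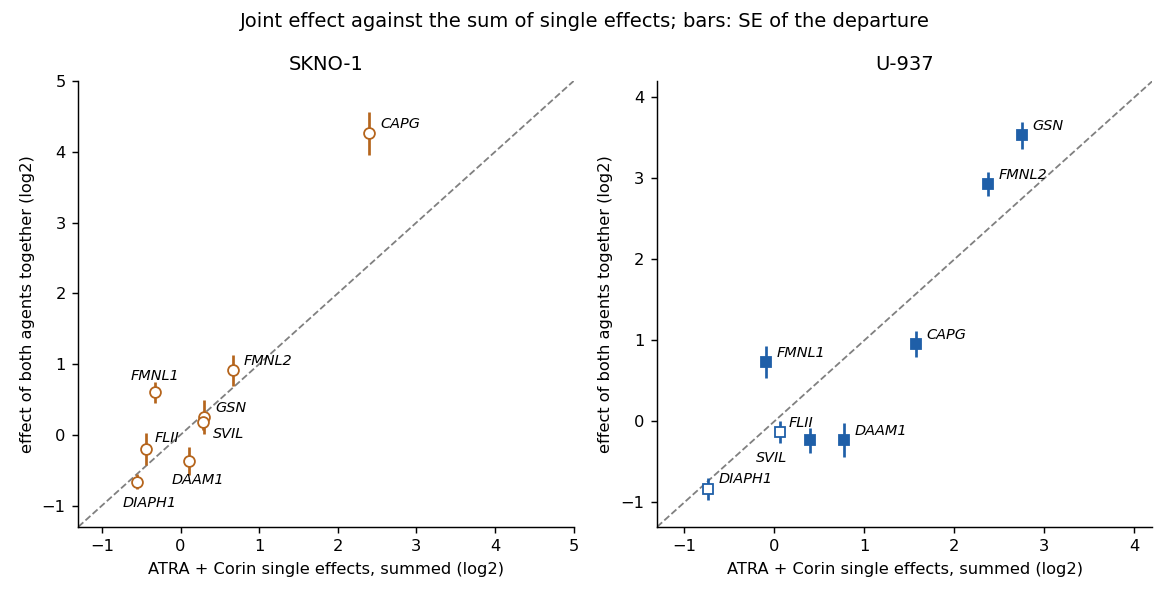
Log2 change with both agents (vertical axis) against the summed log2 changes with ATRA and with Corin (horizontal axis) for 8 members in SKNO-1 and U-937; the dashed line marks equality, bars are standard errors of the departure from it, and filled symbols passed the test. In U-937 GSN, FMNL1 and FMNL2 lie above the line and CAPG, SVIL and DAAM1 below it, and in SKNO-1 no member passed.

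Between the lines, 6 of 8 members differed under DMSO, 4 higher in U-937 and 2 lower, where 64.8% of all genes tested were called. CAPG was 348-fold higher in U-937 (log2 difference 8.44, SE 0.16, adjusted p = 2.46e-18), and DAAM1 (0.92), FLII (0.72) and FMNL2 (0.63) were higher by less than 2-fold. GSN was 6.28-fold lower in U-937 (−2.65, SE 0.161, adjusted p = 2.59e-10) and DIAPH1 1.55-fold lower (−0.63, SE 0.092, adjusted p = 6.87e-06). The response to ATRA differed for 4 of 8 members beside 19.4% of all genes, all 4 more positive in U-937, the response to Corin for 2 of 8 beside 12.8%, both less positive in U-937, and the response to both agents for 4 of 8 beside 40.6%, 2 in each direction. With ATRA these were FMNL2, CAPG, GSN and SVIL, with Corin CAPG and FMNL2, and with both agents GSN and FMNL2 upward and CAPG and SVIL downward. GSN with both agents thus ended at 118 ± 3.11 CPM in U-937 and 74.6 ± 1.51 CPM in SKNO-1, the reverse of the order under DMSO.

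Other actin regulators were counted in lists chosen for their function, with earlier results of these data known. In U-937, 8 of 9 tested subunits of the Arp2/3 complex, which nucleates branched actin, rose with ATRA, where 41.8% of all genes were called in either direction, and 8 of 9 with both agents, beside 65.3%. The count with both agents was 7 with DESeq2 and 6 with library totals, and none was called with Corin. The exception in both cases was ARPC5L, which fell (−0.46 and −0.88), whereas ARPC1B rose by 1.06 and 1.18. In SKNO-1 none of the 9 was called with ATRA, 3 fell with Corin (37.9% of all genes called), or 1 with library totals, and 7 fell with both (46.7%), or 5 to 7 with DESeq2, library totals or a GC trend removed. The list's median log2 change with both agents was 0.55 in U-937 and −0.27 in SKNO-1, against 0.03 and 0.06 over all genes. So 7 Arp2/3 subunits and the formin DIAPH1 fell in SKNO-1 with both agents, and in U-937 DIAPH1 fell while 8 Arp2/3 subunits rose.

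With both agents in U-937, the counts called higher and lower were 4 and 3 of 9 nucleation-promoting factors, 8 and 3 of 13 capping and monomer-binding proteins, 4 and 2 of 9 small GTPases and formin partners, and 5 and 2 of 8 partners of the gelsolin family and actins. They were 2 and 2 of 6 other formins tested, with FMN1 left out because it had 0 counts with DMSO, and 1 and 1 of 2 other gelsolin family genes tested. Of all genes tested 65.3% were called in this comparison. In SKNO-1 the same counts were 1 and 1 of 9, 2 and 4 of 13, 2 and 1 of 10, 2 and 2 of 8, 1 and 2 of 6, and 1 and 0 of 2, beside 46.7% of all genes. The largest rises in U-937 were TMSB10, a thymosin that binds actin monomers (174 to 644 CPM; log2 change 1.89, SE 0.122, adjusted p = 1.95e-12), MYH9, the heavy chain of non-muscle myosin (343 to 1080 CPM; 1.65), and the GTPase RHOC (1.38). The largest falls were DIAPH3, a relative of DIAPH1 (99.1 to 21.8 CPM; −2.18, SE 0.106, adjusted p = 1.13e-14), DVL1, a Dishevelled protein (−1.65), and the filament-severing DSTN (−1.08). In SKNO-1 PFN2, a profilin that feeds actin monomers to formins, rose from 11.9 to 69.4 CPM (2.60, SE 0.0796, adjusted p = 6.48e-07), and RHOC (0.92) and DVL3 (0.74) also rose. TWF1 (−0.85), WIPF1 (−0.71) and ACTR3, an Arp2/3 subunit (−0.54), fell. The formin FMN1 had 0 counts in U-937 with DMSO and 18, 43 and 238 with ATRA, Corin and both, at least 5.33, 12.9 and 77.1-fold higher where the DMSO pair is set at 3 counts in sum.

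**Figure D5:**
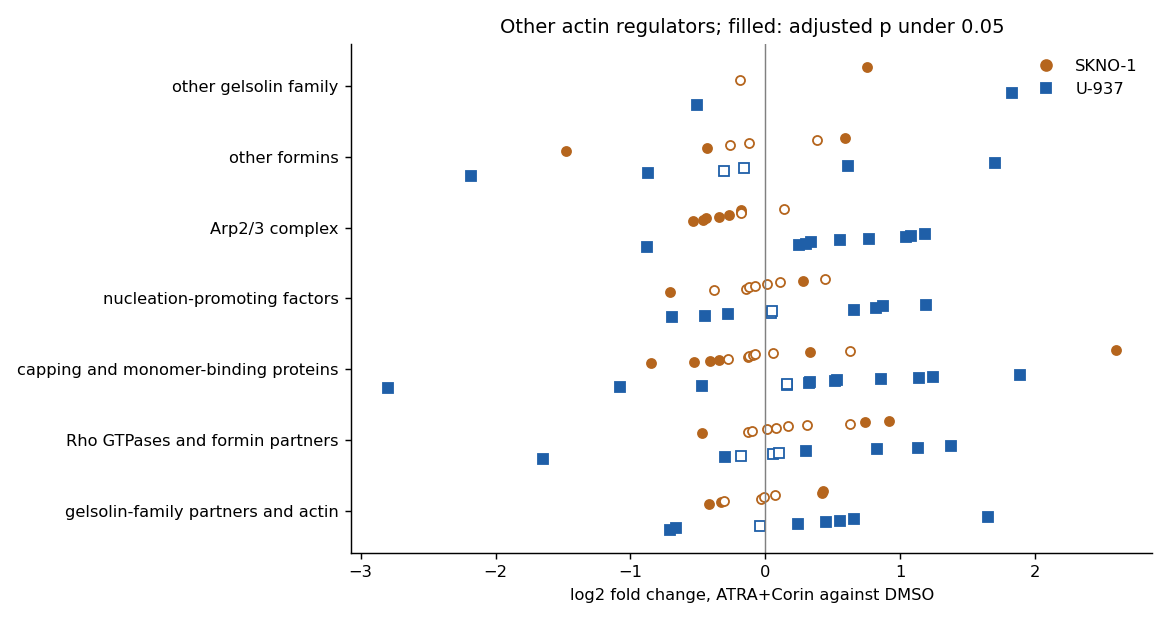
Log2 change with both agents against DMSO of each tested gene of the actin regulator lists in SKNO-1 and U-937, 1 symbol a gene (circles SKNO-1, squares U-937), filled where it passed the test. Of the Arp2/3 subunits 8 of 9 lie above 0 in U-937 and 8 of 9 below 0 in SKNO-1, 7 of the latter filled; FMN1 in U-937 is not drawn because its DMSO group is at 0 counts.

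The 5 genes whose log2 CPM followed DAAM2 most closely over the 16 libraries, among 10897 genes, were CYP4F3 (Pearson r = 0.985), MGAT4A (0.977), LAPTM5 (0.976), Z98257.1 (0.974) and NR6A1 (0.971). The libraries share 2 cell lines and the high ATRA groups, so r is a description with no test. CYP4F3, a leukotriene-metabolising enzyme, was at 0.203, 33.9, 0.521 and 44.4 CPM in U-937 with DMSO, ATRA, Corin and both. LAPTM5, a lysosomal membrane protein of blood cells, was at 276, 737, 296 and 768 CPM. Both were picked for following DAAM2, so their higher levels in the 2 U-937 groups that had ATRA come with that choice. With a prior count of 0.5 in place of 2, 2 of the 5 (CYP4F3 and LAPTM5) were again among the first 5. For GSN the first 5 were AC006064.5 (0.979), IP6K2 (0.973), PFDN5 (0.972), SAMD9L (0.967) and TMBIM1 (0.967).

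In the authors' deposited table of their own comparisons, DAAM2 in U-937 has a log2 change of 11.07 with ATRA, 10.99 with both and 3.07 with Corin, the last with no adjusted p. That deposited table gives GSN in U-937 a log2 change of 3.51 with both agents and CAPG in SKNO-1 one of 4.51 with Corin. In SKNO-1 some changes called here were not under 0.05 by the authors' own test. With ATRA these were CAPG (adjusted p = 0.327), DAAM1 (0.436) and DIAPH1 (0.0596), and with Corin SVIL (0.238) and DAAM1 (0.244). The other changes against DMSO called here were under 0.05 there. The differentiation marker ITGAM, which encodes the integrin CD11b, was also higher under each treatment in U-937, as GSN was. It stood at 4.54, 100, 52.9 and 360 CPM in U-937 with DMSO, ATRA, Corin and both, and at 0.394, 0.936, 37.4 and 117 CPM in SKNO-1. Other maturation markers differed from it in U-937. CD86 was at 0.333, 4.43, 5.35 and 168 CPM in the same order of treatments. CD38 was at 12.1, 384, 14.2 and 331 CPM, lower with both agents than with ATRA. CD14 had a mean of at most 0.213 CPM in any U-937 group. The part of these markers in the results for GSN was not tested.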

How the data were processed

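For all 16 RNA-seq libraries total RNA was prepared by a stranded protocol, per the labels' protocols. The submitters' processing notes name Trimmomatic, STAR, RSEM, deepTools and DESeq2 without versions, and the build hg38. The authors deposited RSEM estimated counts per gene and TPM, and a table of their own comparisons whose log2 fold changes and adjusted p-values are used as deposited. RSEM spreads reads that match several genes, and 20.4% of the positive deposited counts were not whole, so they were rounded for the tests. No spike-in entries were in the table used here, so RNA per cell was not measured.

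The members and lists were chosen with earlier results of these data known, and all 10 members are named. From the lists, the 3 largest rises and falls with both agents per line were named at a mean of at least 5 CPM. Counts were tested with edgeR 4.0.16 in R 4.3.3 (TMM, filterByExpr, robust quasi-likelihood). Each line's 8 libraries were fitted together (17479 genes for SKNO-1; for U-937, 17717), and all 16 for contrasts between lines (19872 genes). DAAM2 was planned to be tested in U-937 for both agents against each single agent, and is described only, since its selection fixed those differences too. Adjusted p-values are Benjamini-Hochberg over all genes tested. CPM use TMM over 16 libraries, and genes are compared with each other only in TPM. Intervals and limits for low counts cover counting error only. Positions are those of GENCODE 44. The scripts were tested on simulated data. Alternatives were DESeq2 1.42.0, library totals, no low-count filter, a replicate block, a GC trend removed, 4 libraries alone and each library left out.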

Additional observations from a re-analysis of the deposited data

Results flagged for a closer look

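The responses of 4 members differed between the lines by the edgeR test of the difference itself over all 16 libraries. Values are the log2 change in U-937 minus that in SKNO-1. For ATRA the difference was 2.14 for GSN (SE 0.215, adjusted p = 2.4e-06), 2.66 for CAPG (SE 0.392, adjusted p = 6.55e-05), 2.73 for FMNL2 (SE 0.193, adjusted p = 9.27e-09) and 0.45 for SVIL (SE 0.137, adjusted p = 0.0240). For Corin it was −3.45 for CAPG (SE 0.204, adjusted p = 1.79e-09) and −0.99 for FMNL2 (SE 0.188, adjusted p = 0.00147). For both agents it was 3.32 for GSN (SE 0.215, adjusted p = 3.17e-09), −3.27 for CAPG (SE 0.206, adjusted p = 3.72e-10), 2.07 for FMNL2 (SE 0.186, adjusted p = 3.9e-08) and −0.37 for SVIL (SE 0.137, adjusted p = 0.0396).

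FMNL2 thus differed between the lines in opposite senses for the single agents: ATRA raised it only in U-937 by the test, and Corin only in SKNO-1. The SVIL differences were lost in 15 of 21 alternatives each, among them 13 and 12 of the 16 fits that left out 1 library (adjusted p from 0.0502 to 0.152 and from 0.0557 to 0.127). The other 8 differences kept their call in 21 of 21. The lines also differ in medium, and the line and its medium cannot be told apart.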

How the results depend on the processing

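Among the alternatives, those that left out 1 library gave 696 values, of which 612 kept direction and call, 70 lost the call, 10 gained it and 4 reversed; the other settings gave 403 values, with 361, 25, 12 and 4. A lone remaining library was assumed to vary like the other groups. GSN in SKNO-1 with ATRA was −0.02 with DESeq2, −0.03 without the low-count filter, −0.02 with the GC trend removed and 0.00 in the 4 libraries alone. Leaving out 1 library gave −0.30 to 0.31 for it with ATRA, 0.00 to 0.61 with Corin and −0.03 to 0.58 with both. The replicate numbers do not pair the libraries (correlations of deviations −0.49 to 0.42). With the replicate block the counts called were 2, 4, 4, 4, 2 and 0 in SKNO-1 (ATRA, Corin and both against DMSO, both against ATRA, both against Corin, additivity), 6, 2, 5, 7, 5 and 6 in U-937 and 6, 4, 2 and 3 between the lines (DMSO, ATRA, Corin, both).

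Counts of called members moved by over 1.5 times mostly in SKNO-1. With ATRA 3 became 5 with the GC trend removed, 0 in the 4 libraries alone and 1 to 6 with 1 library left out. With Corin 5 became 2 in the 4 libraries alone and 2 to 7 with 1 left out. Both against ATRA went from 4 to 7 without the filter, 8 in the 4 libraries alone and 4 to 8 with 1 left out. Both against Corin went from 2 to 5 in the 4 libraries alone and 0 to 5 with 1 left out. Additivity went from 0 to 2 with DESeq2, 1 with library totals, 2 without the filter, 1 with the GC trend removed and 0 to 5 with 1 left out. In U-937 Corin gave 1 to 2 and both against Corin 3 to 5 with 1 library left out, and the Corin response between lines 2 to 4. With 2 libraries a group, differences under about 1.5-fold were often lost with 1 library. Library totals moved group means by −5.8% to 8.6%. DAAM2 and SCIN in SKNO-1, at 2 counts or fewer, could not be fitted.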
